A study of Homo sapiens with 10 samples.

Results

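Transcripts of 8 genes for secreted plasma proteins were followed across the 5 cell lines: the fibrinogen chains FGA, FGB and FGG, the fibrinogen-like gene FGL1, the complement genes C3 and CFB, and the serpin genes SERPINA1 and SERPING1. They were chosen by name, as proteins of the acute-phase and complement groups that A549 cells are known to make. Earlier results of these data were known at that choice, so counts of called members beside the share of all genes are descriptive. The genes are 8 of the 33551 rows of the count table. All 8 passed the filter on low counts that left 17978 genes for testing. RNA was measured and secretion was not.

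The cells were A549, an established human lung adenocarcinoma line that keeps some features of alveolar epithelium. Per the labels, 5 lines were used: ABCA3 wild type (WT), ABCA3 knockout (KO), and lines with the ABCA3 variants L101P, E292V and E690K. Each line gave 1 untreated library and 1 library after overnight transduction with LV-ABCA3:GFP, a VSVG-pseudotyped lentiviral vector carrying ABCA3 joined to GFP, with an MOI (infectious particles per cell) of 20. ABCA3 is a lipid transporter of lamellar bodies, the organelles in which alveolar type 2 cells store surfactant. Each genotype is therefore 1 line, all lines share the A549 background, and the labels give neither the number of clones nor a control vector without ABCA3.

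Fibrinogen is a secreted protein built from pairs of alpha, beta and gamma chains, which FGA, FGB and FGG encode, and thrombin turns it into the fibrin of clots. The liver makes most plasma fibrinogen, and in the acute-phase response interleukin 6 acts through STAT3 and interleukin 1 acts through NF-kB and C/EBP factors to raise hepatic plasma proteins. Lung epithelial cells can also make fibrinogen during inflammation. Complement C3 is the protein on which the complement pathways converge, factor B (CFB) provides the protease of its alternative pathway, and the serpins alpha-1-antitrypsin (SERPINA1) and C1 inhibitor (SERPING1) inactivate serine proteases.

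Total counts ran from 59430095 to 96811421, and the L101P pair held both extremes, the untreated library the lower. ABCA3 and EGFP, the targeted gene and the vector's reporter, went against the labels of the KO pair. The library labelled KO untreated had 600.3 CPM (counts scaled to the library total, TMM-adjusted) of ABCA3 and 2842 EGFP counts, and the library labelled KO transduced had 25.99 CPM and 4 counts. EGFP was higher in the transduced library in the other 4 lines, by little in E690K (16.53 and 18.48 CPM). It was also counted in the untreated libraries, up to 69.73 CPM in WT, above the transduced libraries of L101P, E292V and E690K. ABCA3, untreated library first, had 355.8 and 602.2 CPM in WT, 964.9 and 1021 in E292V, and 900.3 and 993.9 in E690K. In L101P ABCA3 was lower in the transduced library (1151 untreated and 922.1 CPM transduced). Any vector direction from the KO pair below rests on its labels. The distance (root mean square log2 CPM) was 0.646 to 0.759 within a line and 0.67 to 0.991 between lines.

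Markers of other cell types were checked for the sources that could carry these genes. The 6 epithelial markers summed to 7932 to 15190 CPM, the highest sum being in the transduced L101P library. The 8 hepatocyte markers summed to 0.08027 to 0.7533 CPM, with ALB at 0 to 20 counts, APOA1 at 0 to 22 and APOA2 at 0 in the 10 libraries. The 6 endothelial markers summed to 0.1041 to 1.159 CPM. The immune list summed to 22.81 to 50.63 CPM, most of it CD68 (20.1 to 44.2 CPM), with CD3E and MS4A1 at 0 in the 10 libraries. The fibroblast list summed to 16.4 to 119.3 CPM, carried by COL1A1 (14.2 to 116 CPM), while COL1A2, COL3A1, DCN and PDGFRB stayed at or below 39 counts and LUM had 94 to 320. COL1A1 was higher than WT in E292V (log2 1.42, edgeR adjusted p 0.0214) and LUM in E690K (1.02, 0.0371). The alveolar type 2 list summed to 1.418 to 2.267 CPM, and its surfactant protein gene SFTPA1 and its transcription factor gene NKX2-1 had at most 11 and 16 counts. The defining surfactant genes of the alveolar type 2 cell were at or near 0.

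The 8 genes fell into 3 tiers of abundance. Per kilobase of exon, the median level over the 10 libraries was 47.28 CPM for FGB, 32.69 for FGA and 24.97 for FGG. FGL1 followed at 6.453 and C3 at 4.255. SERPING1 at 0.09448, SERPINA1 at 0.08635 and CFB at 0.07814 CPM per kilobase were the lowest. The fibrinogen chains together took 0.0156% to 0.0624% of all counts. CFB had 13 to 77 counts per library, SERPINA1 18 to 175 and SERPING1 6 to 66. Counts appear to hold both mates of a read pair, so the 95% Wilson intervals of single levels were taken on the count divided by 2, and they cover counting error only. Those of CFB and SERPING1 spanned much of the range between libraries, and those of SERPINA1 a smaller part of it.

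**Figure D1:**
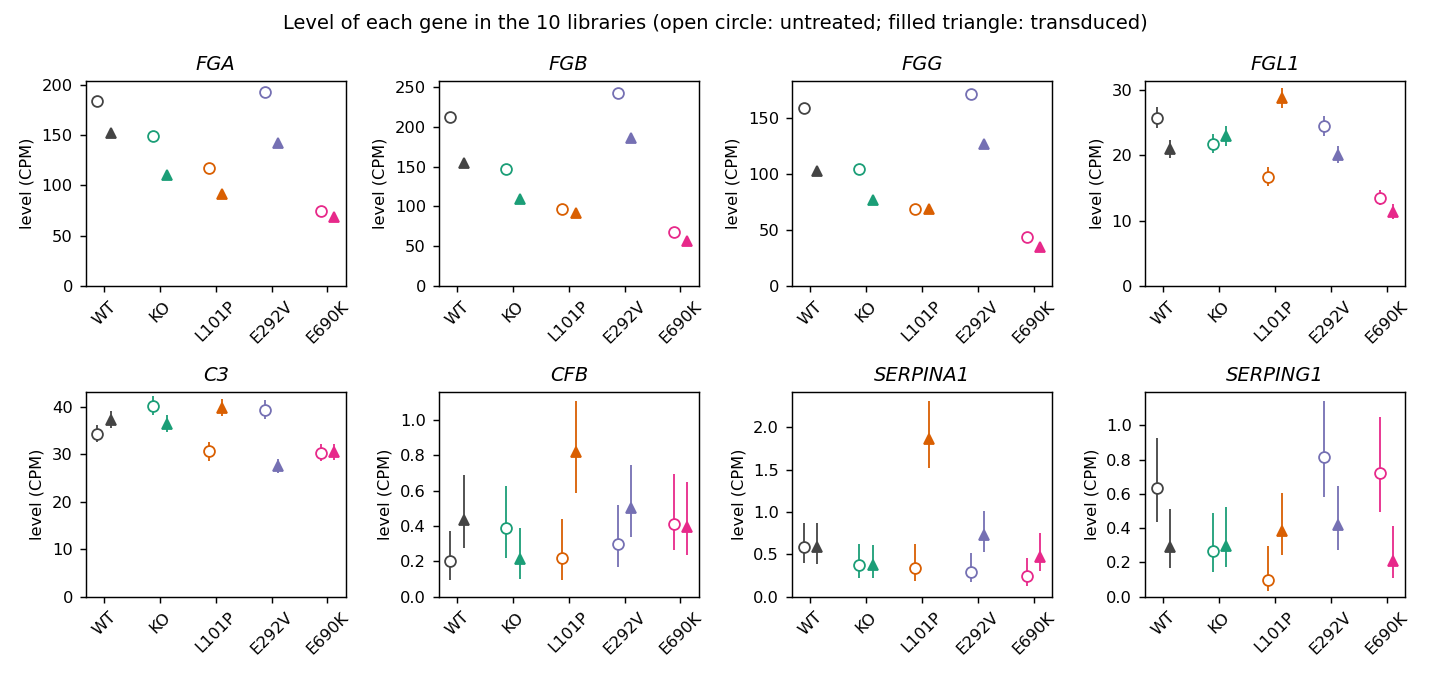
Level of each of the 8 genes in CPM (linear axes, each from 0) in the untreated (open circle) and transduced (filled triangle) library of each line, with 95% counting intervals. FGA, FGB and FGG had their lowest levels in the E690K pair, and SERPINA1 its highest level, 1.861 CPM, in the transduced L101P library.

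The fibrinogen genes lie side by side on chromosome 4 in GRCh38, as annotated by GENCODE release 29, within 50.0 kb. FGB (ENSG00000171564.11) runs on the plus strand from 154562956 to 154571086, and FGA (ENSG00000171560.14) and FGG (ENSG00000171557.16) on the minus strand from 154583126 to 154590766 and from 154604134 to 154612967. Their promoters are shown because the 3 genes moved together in the results that follow. The sequences come from RefSeq on GRCh38.p14, on the strand of the gene, and positions count bases upstream of the RefSeq start. Those of FGB and FGA were taken outside the annotated gene. The window of FGG lies inside the longest annotated FGG transcript span, so only 30 bases around its match are given. Capitals mark matches to GTTAAT (the HNF1 half-site), CTGGGAA (the interleukin 6 response element core) and TTGCNNAA (a C/EBP-type site), each searched on both strands over 250 bases, with no overlap between matches. FGB is chr4:154562730-154562955 on the plus strand, FGA chr4:154590767-154590992 on the minus strand and FGG chr4:154612799-154612828 on the minus strand.
FGB: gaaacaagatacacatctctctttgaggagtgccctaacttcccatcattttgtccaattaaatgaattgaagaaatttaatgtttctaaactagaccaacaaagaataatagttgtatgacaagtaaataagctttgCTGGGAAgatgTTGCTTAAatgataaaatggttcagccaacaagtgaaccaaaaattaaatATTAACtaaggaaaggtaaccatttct
FGA: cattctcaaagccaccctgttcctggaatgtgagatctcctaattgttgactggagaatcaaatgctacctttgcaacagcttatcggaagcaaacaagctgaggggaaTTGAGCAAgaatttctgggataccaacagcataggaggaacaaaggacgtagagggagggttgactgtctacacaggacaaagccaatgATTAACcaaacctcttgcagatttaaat
FGG: gtgtgcaaaatCTGGGAAcctgacagtata

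FGB held all 3 motifs, with CTGGGAA 112 to 106 bases, TTGCTTAA ending 94 bases upstream and ATTAAC, the half-site on the other strand, 51 to 46 bases upstream. FGA held ATTAAC at 52 to 47 bases and TTGAGCAA, a C/EBP-type match on the other strand, at 141 to 134 bases. FGG held CTGGGAA at 161 to 155 bases. RefSeq lists a second FGB start, from which the same matches lie 143 to 137, 132 to 125 and 82 to 77 bases upstream. Of 35116 RefSeq windows of the same length, 6.23% held GTTAAT, 9.15% CTGGGAA and 9.05% TTGCNNAA. Promoter entries were matched for 5 of the 8 genes. The CFB window held none of the 3 motifs, and of the SERPINA1 windows 1 held GTTAAT, 76 to 71 bases upstream, and the other none. A match of these letters is a description of the sequence, and binding was not measured.

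The fibrinogen chains were lowest in the E690K line, intermediate in L101P and in the line labelled KO, and near the WT level in E292V. Of the 6 epithelial markers, 1 was called against WT in KO, 2 in L101P, 3 in E690K and 0 in E292V, all higher. The shares of all tested genes called were 1.80%, 3.94%, 5.38% and 1.05%, in the same order. The calls were EPCAM in KO (log2 1.25, edgeR adjusted p 0.00434), and KRT8 and KRT19 in L101P (0.55 and 1.24, 0.0476 and 0.0211). In E690K they were EPCAM, KRT19 and KRT7 (0.71, 1.03 and 0.37, 0.0327, 0.0368 and 0.0143). CDH1 and KRT18 were called in none of the 4 lines, CDH1 having -0.30 in E690K. EPCAM also had 0.65 in E292V (edgeR adjusted p 0.122). CD68 was higher in L101P (0.61, edgeR adjusted p 0.0366). The part of these markers in the fibrinogen differences was not tested. Relative to the geometric mean of the WT pair, the E690K pair stood at 42.9% for FGA, 34.1% for FGB and 30.6% for FGG. The L101P pair stood at 62.1%, 51.9% and 54.0%, and the KO pair at 77.0%, 69.6% and 70.1%, in the same order of genes. The E292V pair stood at 98.9%, 117% and 115%. In bulk RNA, fewer cells making a transcript and less transcript per cell cannot be told apart.

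FGB, the beta chain gene, had 213.0 CPM in the untreated and 155.2 CPM in the transduced WT library. KO had 146.9 and 109.1 CPM, L101P 97.06 and 91.56, E292V 242.8 and 185.8, and E690K 67.92 and 56.73. The pairs of WT, KO, L101P and E690K did not overlap one another, and E292V overlapped WT. From E292V untreated to E690K transduced FGB differed 4.28-fold.

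FGG, the gamma chain gene, had 159.4 CPM in untreated and 102.6 CPM in transduced WT cells. Its levels were 104.2 and 77.13 CPM in KO, 69.09 and 69.07 in L101P, 171.7 and 127.0 in E292V, and 44.12 and 34.65 in E690K. The KO pair overlapped WT by a narrow margin, and the L101P and E690K pairs lay below the pairs above them without overlap.

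FGA, the alpha chain gene, had 183.5 and 152.1 CPM in WT, 149.4 and 110.7 in KO, 117.1 and 91.86 in L101P, 192.8 and 141.6 in E292V, and 74.93 and 68.4 in E690K, the untreated library first. Its range over the libraries was 2.82-fold, against 4.28-fold for FGB and 4.96-fold for FGG. Neighbours in its order of lines overlapped except L101P and E690K.

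Each edited line was compared with WT to ask how the lines differed with vector status averaged, in 1 edgeR quasi-likelihood model with terms for line and for vector, fitted to the 10 libraries with Benjamini-Hochberg adjustment over the 17978 genes and a threshold of 0.05. With 1 library per line and treatment, the error term measures how far libraries depart from a sum of line and vector effects, and nothing states that libraries came from separate cultures, so a call compares these particular lines, and other clones of a genotype were not sampled. The 4 comparisons share the WT libraries.

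In E690K, 4 of the 8 genes were called, all lower, where 5.38% of all tested genes were called in either direction. FGG fell by 1.72 on the log2 scale (SE 0.119, edgeR adjusted p 1.2e-05), FGB by 1.55 (SE 0.093, edgeR adjusted p 4.93e-06) and FGA by 1.22 (SE 0.086, edgeR adjusted p 1.22e-05). The fourth was FGL1, described below. The median log2 fold change of the 8 genes was -0.88, and that of all tested genes -0.0171.

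In L101P, 3 of the 8 genes were called, all lower, beside 3.94% of all tested genes. FGB fell by 0.94 on the log2 scale (SE 0.091, edgeR adjusted p 0.000486), FGG by 0.88 (SE 0.116, edgeR adjusted p 0.00213) and FGA by 0.69 (SE 0.085, edgeR adjusted p 0.00168). The median was -0.361 for the 8 genes and -0.0141 for all tested genes.

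In the line labelled KO the same 3 chains were called, all lower, beside 1.80% of all tested genes. FGB fell by 0.52 on the log2 scale (SE 0.091, edgeR adjusted p 0.0137), FGG by 0.52 (SE 0.115, edgeR adjusted p 0.0438) and FGA by 0.38 (SE 0.084, edgeR adjusted p 0.0454). The median was -0.447 for the 8 genes and -0.0124 for all tested genes. These calls rested on few libraries: all 3 were lost without the untreated WT library or without either KO library (edgeR adjusted p 0.058 to 0.636), and FGA and FGG were also lost without either E690K library (0.0507 to 0.0823). The transduced WT library decided FGA as well (edgeR adjusted p 0.258 without it). With vector status left out of the fit, none of the 3 passed (edgeR adjusted p 0.178 to 0.363), at log2 fold changes of -0.37 for FGA, -0.52 for FGB and -0.53 for FGG. Without the untreated KO library these were -0.44, -0.58 and -0.55.

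In E292V, 0 of the 8 genes were called by the edgeR test, beside 1.05% of all tested genes, and DESeq2 also called 0. FGB differed by 0.22 in log2 (SE 0.09, edgeR adjusted p 0.394), the only member with an unadjusted p under 0.05 (0.0287). FGG had 0.20 (SE 0.115, edgeR adjusted p 0.618) and FGA -0.01 (SE 0.084, edgeR adjusted p 0.978). The median was 0.0933 for the 8 genes and -0.000648 for all tested genes.

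**Figure D2:**
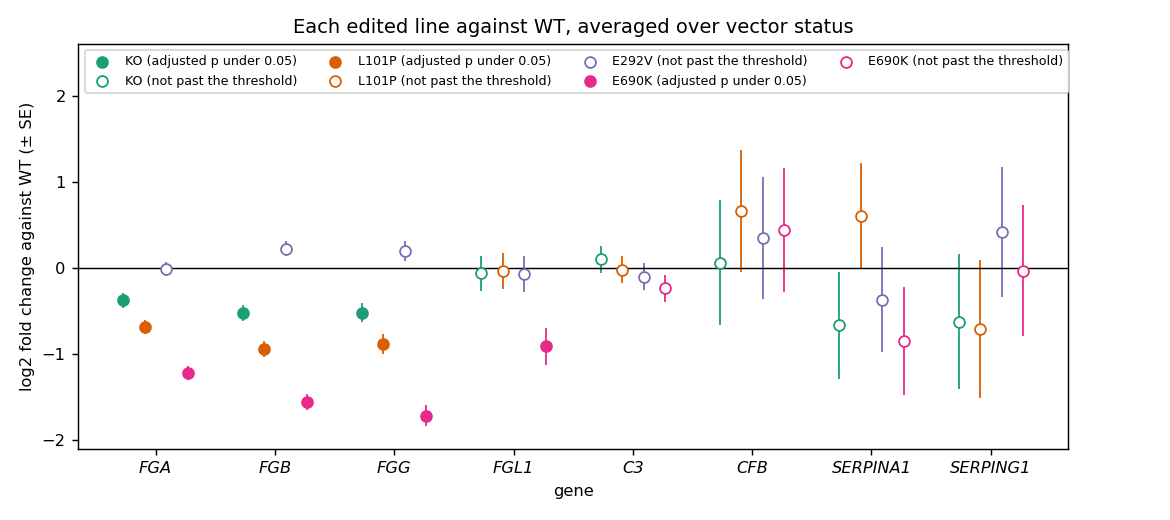
Log2 fold change of each gene against WT in the 4 edited lines, averaged over vector status, with standard errors from the edgeR fit. Filled points passed an adjusted p of 0.05: FGA, FGB and FGG in KO, L101P and E690K, and FGL1 in E690K, where FGG was lower by a log2 value of -1.72.

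Over the 5 lines jointly, 4 of the 8 genes differed, beside 13.0% of all tested genes. These were FGB (edgeR adjusted p 4.6e-06), FGG (1.48e-05), FGA (1.9e-05) and FGL1 (0.0456).

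The ratios between the chains varied among libraries. The ratio of FGG to FGA counts, untreated library first, was 0.869 and 0.675 for WT, 0.697 in both KO libraries, 0.59 and 0.752 with L101P, 0.891 and 0.897 with E292V, and 0.589 and 0.507 with E690K. The ratio of FGB to FGA counts was 1.16 and 1.02 in WT, 0.983 and 0.986 in KO, 0.829 and 0.997 in L101P, 1.26 and 1.31 in E292V, and 0.906 and 0.829 in E690K. Both ratios were higher in the E292V pair than in the other 8 libraries. Scaled by exon length, FGB made up 42.3% to 49.1% of the chain transcripts, FGA 25.6% to 36.1% and FGG 20.1% to 26.2%. The differences between these ratios were not tested.

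FGL1 (ENSG00000104760.16) encodes fibrinogen-like protein 1, a secreted hepatocyte protein that shares the fibrinogen C-terminal domain and is known as a ligand of the immune receptor LAG3. Against WT it passed the test in E690K alone. WT had 25.68 CPM untreated and 20.89 CPM transduced, followed by 21.71 and 22.87 in KO, 16.65 and 28.72 in L101P, 24.41 and 20.05 in E292V, and 13.42 and 11.34 in E690K. The E690K pair lay below the other 8 libraries, at 53.3% of WT, and the other 4 pairs overlapped. In E690K FGL1 fell by 0.91 on the log2 scale (SE 0.21, edgeR adjusted p 0.0261). The call was lost without the untreated WT library (edgeR adjusted p 0.23), without the untreated or the transduced E690K library (0.137 and 0.253) and without the KO pair (0.055).

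The L101P pair of FGL1 spanned the widest interval of the 5 lines, and its direction against WT depended on single libraries. Its log2 fold change was -0.03 (SE 0.208, edgeR adjusted p 0.961). Without the untreated L101P library it was 0.40 (edgeR adjusted p 0.0634), and without the transduced one -0.57 (0.0268). Without the untreated WT library it was 0.16 (0.852). In KO and E292V the values were -0.06 (SE 0.206, edgeR adjusted p 0.933) and -0.07 (SE 0.206, 0.954).

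C3 (ENSG00000125730.16, chromosome 19, 6677704 to 6730562, minus strand) was the steadiest of the 8 genes, with a range of 1.47-fold over the libraries. It had 34.36 and 37.32 CPM in WT, 40.3 and 36.51 in KO, 30.66 and 39.87 in L101P, 39.41 and 27.46 in E292V, and 30.29 and 30.52 in E690K, the untreated library first. Neighbouring pairs in the order of lines all overlapped. Against WT, KO had a log2 difference of 0.10 (SE 0.157), L101P of -0.02 (SE 0.157), E292V of -0.10 (SE 0.158) and E690K of -0.24 (SE 0.158), and edgeR adjusted p ran from 0.467 to 0.971. C3 overlaps GPR108 on the same strand, which had 2682 to 4968 counts, and how reads in the shared stretch were assigned is not given in the sources used here.

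CFB (ENSG00000243649.8, chromosome 6, 31945650 to 31952084, plus strand), which encodes factor B, was scarce throughout. Its counts were 17 and 36 in WT, 29 and 17 in KO, 13 and 77 in L101P, 24 and 48 in E292V, and 31 and 30 in E690K, the untreated library first. The transduced L101P library was the highest at 0.8187 CPM (95% interval 0.589 to 1.11). Its interval overlapped, among others, those of WT transduced (0.276 to 0.691) and E292V transduced (0.336 to 0.744). It lay above those of L101P untreated (0.0921 to 0.439), WT untreated (0.0954 to 0.372), KO transduced (0.101 to 0.392) and E292V untreated (0.169 to 0.518). The log2 fold changes of CFB against WT were 0.06 (SE 0.725) to 0.66 (SE 0.71), with edgeR adjusted p of 0.691 to 0.984. CFB overlaps C2 on the same strand, which had 4 to 23 counts.

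SERPINA1 (ENSG00000197249.13, chromosome 14, 94376747 to 94390693, minus strand) encodes alpha-1-antitrypsin, the main plasma inhibitor of neutrophil elastase. It had 50 and 48 counts in WT, 28 and 30 in KO, 20 and 175 in L101P, 24 and 70 in E292V, and 18 and 36 in E690K, the untreated library first. The transduced L101P library, at 1.861 CPM (95% interval 1.52 to 2.31), stood above the intervals of the other 9 libraries, while the untreated L101P library had 0.3351 CPM (0.182 to 0.617). No line differed from WT at the threshold, KO having a log2 difference of -0.66 (SE 0.621), L101P of 0.61 (SE 0.616), E292V of -0.37 (SE 0.612) and E690K of -0.85 (SE 0.627), at edgeR adjusted p 0.525 to 0.907. These standard errors are larger than the differences of FGA from WT in KO, and close to that in L101P.

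SERPING1 (ENSG00000149131.15, chromosome 11, 57597387 to 57614853, plus strand) encodes C1 inhibitor, which blocks the first proteases of the classical pathway. It had 54 and 24 counts in WT, 20 and 24 in KO, 6 and 36 in L101P, 66 and 40 in E292V, and 54 and 16 in E690K, the untreated library first. The untreated libraries of WT, E292V and E690K were the highest, at 0.6356, 0.8143 and 0.7224 CPM, and the untreated L101P library was the lowest at 0.1005 CPM (95% interval 0.0342 to 0.296). Against WT the log2 fold changes lay between -0.71 (SE 0.802) in L101P and 0.41 (SE 0.753) in E292V, with edgeR adjusted p of 0.708 to 0.991.

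To ask what the vector changed across lines, transduced and untreated libraries were compared with line as a block. The call count was 0 of 8, as it was 0% of all tested genes by edgeR (1236 genes at an unadjusted p below 0.05, smallest adjusted p 0.109, while DESeq2 called 113). The median log2 fold change was -0.178 for the 8 genes and 0.000851 for all tested genes. FGA, FGB and FGG stood at ranks 5, 15 and 29 of the 17978 genes by p-value. Their log2 fold changes were -0.33 (SE 0.054, edgeR adjusted p 0.109), -0.32 (SE 0.058, edgeR adjusted p 0.109) and -0.37 (SE 0.073, edgeR adjusted p 0.15).

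Each chain was lower in the transduced library in 5 of 5 lines by the labels, in 4 of 5 with the KO pair turned and in 4 of 4 without it. The log2 change of FGA was -0.27 (WT), -0.43 (KO), -0.35 (L101P), -0.45 (E292V) and -0.13 (E690K). That of FGG was -0.64, -0.43, -0.001, -0.44 and -0.35 in the same order, so its 2 L101P libraries were at one level. Without either L101P library all 3 chains passed (edgeR adjusted p 5.07e-05 to 0.0027). All genes called were then 206 of 19123 without the untreated L101P library and 204 of 19071 without the transduced one. Without either E690K library FGA alone passed (edgeR adjusted p 0.0409 and 0.0412), beside 21 of 19142 and 21 of 19132 genes. When no low-count filter was applied the 3 chains passed as well (edgeR adjusted p 2.26e-05 to 8.25e-05), beside 237 of 24252 genes. They also passed under DESeq2 (adjusted p 9.13e-05 to 0.000818), beside 113 of 14841 genes. Without the KO pair, in which both ABCA3 and EGFP go against the labels, FGA had -0.30 (edgeR adjusted p 0.548).

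None of the other 5 genes was called with the vector. By the labels the transduced library was the higher one in 2 of 5 lines for FGL1 and SERPING1 and in 3 of 5 for C3, CFB and SERPINA1. With the KO pair turned these tallies were 1 and 4 of 5, and without it 1 and 3 of 4. SERPINA1 had an average log2 difference of 0.94 (SE 0.405, edgeR adjusted p 0.681), and its line changes ran from -0.01 in WT to 2.47 in L101P. In L101P all 5 were higher after transduction, by 0.38 for C3, 0.79 for FGL1, 1.91 for CFB, 1.93 for SERPING1 and 2.47 for SERPINA1 on the log2 scale. These are 1 library against 1, so they have no replicate check. The untreated L101P library was the shallowest and the transduced one the deepest, the 2 differed in summed epithelial markers (10560 and 15190 CPM), and the part of either in these changes was not tested.

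**Figure D3:**
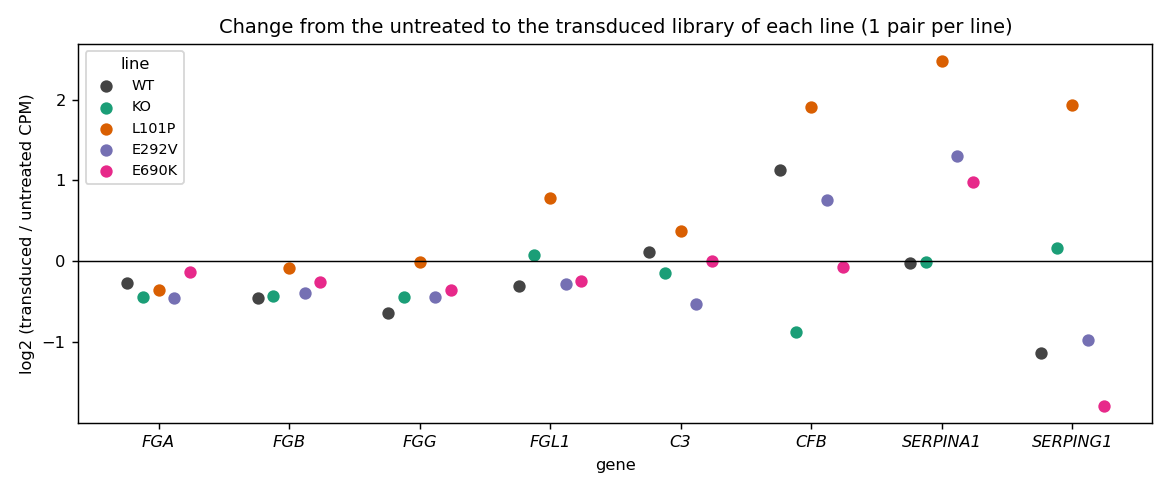
Log2 ratio of the transduced to the untreated level (CPM) of each gene in each line, 1 pair of libraries per line. The fibrinogen chains lay at or below 0 in the 5 lines, and the L101P changes of FGL1, C3, CFB, SERPINA1 and SERPING1 lay above 0, up to 2.47 for SERPINA1.

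The series title distinguishes 2 types of variant, and L101P, known as type 1, was set against the mean of E292V and E690K. By edgeR, 0 of the 8 genes were called, beside 5.79% of all tested genes, and 3 had an unadjusted p under 0.05: FGB (0.00411), FGL1 (0.0246) and SERPINA1 (0.0346). DESeq2 called 1. FGB differed by -0.28 in log2 (SE 0.08, edgeR adjusted p 0.0629), FGL1 by 0.46 (SE 0.179, edgeR adjusted p 0.184) and SERPINA1 by 1.22 (SE 0.512, edgeR adjusted p 0.218). The median was 0.0406 for the 8 genes and -0.00286 for all tested genes. E292V and E690K lay at opposite ends of the fibrinogen range, so their mean describes neither line, and with 1 line of the first type the type cannot be told apart from the line. FGB had -0.14 without the untreated L101P library (edgeR adjusted p 0.333) and -0.44 without the transduced one (0.00429), and it passed in 5 of 17 alternatives. Single L101P libraries turned the direction of FGG, FGL1, C3 and SERPINA1 in this comparison. Without the untreated one FGG had 0.10 and without the transduced one FGL1 had -0.08, C3 -0.12 and SERPINA1 -0.007.

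The neighbours of the fibrinogen cluster were then described, a set chosen after the values of the chains had been seen. Within 2 Mb of the cluster 18 other genes were tested. Their median log2 fold change against WT was -0.089 in KO and 0.0155 in E690K, with 0.133 in L101P and 0.114 in E292V. PLRG1, a spliceosome gene next to FGB, had 0.02 in KO, -0.04 in L101P, -0.02 in E690K and 0.09 in E292V and was called in none of them. In E690K 4 of the 18 were called, beside 5.38% of all tested genes. FHDC1 was higher (0.80, edgeR adjusted p 0.0261) and 3 genes were lower. TDO2, which encodes a liver enzyme of tryptophan breakdown, had -2.37 (edgeR adjusted p 0.0083). GUCY1B1, a subunit of the nitric oxide receptor, had -1.76 (0.0208), and NPY2R, a neuropeptide Y receptor, had -1.33 (0.0281). These 3 genes were scarce, with an average log2 CPM of 0.92, 0.53 and 0.54, against 6.58 to 7.09 for the chains. In L101P only TDO2 was called (-1.76, edgeR adjusted p 0.0404), 1 of 18 beside 3.94% of all tested genes, and in KO and E292V 0 of 18 were (TDO2 -1.61 and 1.23, edgeR adjusted p 0.0762 and 0.228).

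**Figure D4:**
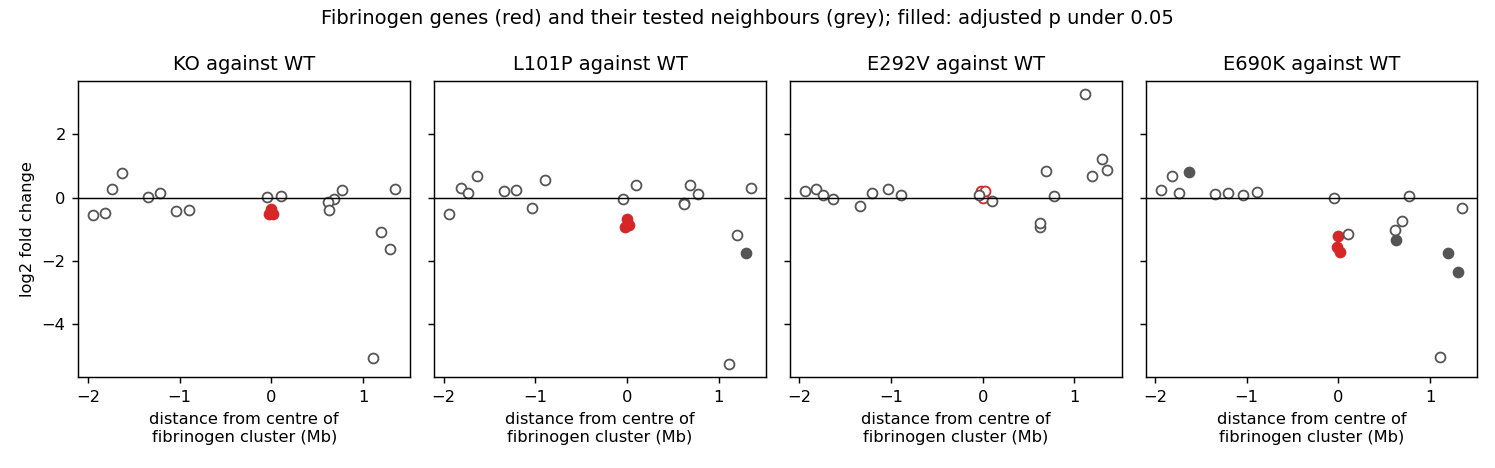
Log2 fold change against WT of FGA, FGB and FGG (red) and of their 18 tested neighbours (grey) by distance in Mb from the centre of the fibrinogen cluster, 1 panel per edited line, filled where the adjusted p was under 0.05. The chains lay below 0 in KO, L101P and E690K while PLRG1 beside them lay near 0; the neighbour near -5 is GUCY1A1, a scarce gene called in no line.

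Related genes were read from lists chosen with earlier results of these data known, and each count stands beside the share of all tested genes called in that comparison, given above. In the fibrinogen family list, 6 of 7 genes were tested, and beyond the members ANGPTL4, singled out after its values were seen, was lower in KO (-0.81, SE 0.152, edgeR adjusted p 0.0192); it encodes an inhibitor of lipoprotein lipase. Of 22 complement component genes 11 were tested, and against WT C5 alone was called. C2, C4A, C4B, C8G, CFP and MASP2 among the 11 were scarce, with an average log2 CPM of -3.35 to -0.55. In L101P against the mean of E292V and E690K, CFD, which encodes factor D of the alternative pathway, was higher (0.94, SE 0.201, edgeR adjusted p 0.0172), a gene singled out after its values were seen. That comparison also had calls in the other lists, beside 5.79% of all tested genes. Higher were 5 of 15 liver-type transcription factors, 3 of 15 complement regulators and receptors, and 1 of 11 other plasma protein genes. Lower were 4 of 25 interleukin signalling genes, 2 of 21 coagulation and fibrinolysis genes and 1 of 6 fibrinogen family genes. Of 15 other serpins 2 were higher and 1 lower. C5, which encodes the component that starts the lytic pathway, had 82.84 and 81.93 CPM in the WT pair and 38.07 and 34.94 CPM in the E690K pair. It fell by 0.48 in KO (SE 0.077, edgeR adjusted p 0.00913), by 0.50 in L101P (SE 0.077, 0.00521) and by 1.18 in E690K (SE 0.079, 9.31e-06), and had 0.02 in E292V (SE 0.077, 0.961). The lines in which C5 was lower are the lines in which the fibrinogen chains were lower, in comparisons that share the WT libraries.

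Of the 15 tested complement regulators and receptors, 4 were called in E690K, 2 in L101P, 1 in KO and 0 in E292V, and all were higher but 1 in E690K. CD55, a membrane brake on the C3 convertases, rose by 1.08 on the log2 scale in L101P (SE 0.245, edgeR adjusted p 0.0301). In E690K CD55 rose by 1.17 (SE 0.243, edgeR adjusted p 0.016). The untreated and transduced libraries had 56.73 and 51.47 CPM in WT, 70.77 and 166.1 in L101P, and 125.5 and 117.8 in E690K. The L101P rise of CD55 thus lay mainly in 1 library, the transduced one. CLU, which encodes the secreted chaperone clusterin, rose by 0.59 in KO (SE 0.092, edgeR adjusted p 0.00742), 0.62 in L101P (0.00424) and 0.54 in E690K (0.00537).

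Among 15 tested other serpins, 0 were called in KO and E292V, 1 was higher in L101P, and 3 were higher and 1 lower in E690K. SERPINA6, which encodes the cortisol carrier corticosteroid-binding globulin, had 6.285 and 5.026 CPM in WT and 1.204 and 1.393 in E690K and fell by 2.11 (SE 0.223, edgeR adjusted p 0.00028). SERPINB8, an intracellular protease inhibitor, rose by 0.84 in E690K (SE 0.196, edgeR adjusted p 0.0277). SERPINE2, an inhibitor of thrombin and plasminogen activators, rose by 0.68 there (SE 0.109, 0.00365).

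Of 26 other acute-phase and hepatic plasma protein genes 11 were tested, and 0 were called in each of the 4 lines. KO had a median of 0.157, L101P of 0.253, E292V of -0.395 and E690K of -0.694, which is the value of CP (SE 0.437). SAA1, APOA1, TF, HPX, AHSG and ITIH2 among the 11 were scarce, with an average log2 CPM of -3.24 to -0.85. Their standard errors in E690K were 0.629 to 2.344, so the lack of calls in them says little. Of 21 tested coagulation and fibrinolysis genes, 0 were called in KO and 1 was higher in E292V. In L101P 4 were higher and 1 lower, and in E690K 4 were higher and 2 lower. THBD, which encodes the anticoagulant receptor thrombomodulin, rose by 0.97 in L101P (SE 0.162, edgeR adjusted p 0.0079) and by 1.15 in E690K (SE 0.163, 0.00158). PLAU, the urokinase plasminogen activator, rose by 0.37 in L101P (edgeR adjusted p 0.0417) and by 0.83 in E690K (0.000376). Its receptor gene PLAUR rose by 0.77 in L101P (edgeR adjusted p 0.044) and by 0.94 in E690K (0.0139). PLAUR had 38.12 CPM untreated and 31.35 transduced in WT, against 45.29 and 74.37 in L101P, so its L101P rise lay mainly in the transduced library.

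Of 25 tested interleukin 6 and interleukin 1 signalling genes, 1 was lower in KO, 2 were lower in L101P, 0 were called in E292V, and 2 were higher and 2 lower in E690K. IL11, an interleukin 6 family cytokine, fell by 1.19 in KO (SE 0.215, edgeR adjusted p 0.0161) and by 1.36 in L101P (SE 0.218, 0.00622). SOCS3, a feedback inhibitor that STAT3 induces, fell by 0.85 in L101P (SE 0.173, edgeR adjusted p 0.0185) and by 0.69 in E690K (SE 0.172, 0.036), and had -0.67 in KO (0.0762). RELB, an NF-kB subunit, rose by 0.53 in E690K (SE 0.095, edgeR adjusted p 0.00691).

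Of 15 tested liver-type transcription factor genes, 1 was higher in KO, 1 was higher and 2 lower in L101P, 1 was lower in E292V, and 1 was higher and 2 lower in E690K. The higher gene was NR3C1 in each, singled out after its values were seen. It had 0.335 in KO, 0.357 in L101P and 0.316 in E690K (edgeR adjusted p 0.0389, 0.0182 and 0.0255). CEBPD, a C/EBP factor of the acute-phase response, fell by 0.52 in L101P (SE 0.126, edgeR adjusted p 0.0392) and by 0.67 in E690K (SE 0.126, 0.00892). NR5A2, a liver nuclear receptor, fell by 0.42 in E690K (SE 0.103, edgeR adjusted p 0.0345). HNF4G fell by 0.70 in E292V (SE 0.136, edgeR adjusted p 0.0311). With the vector, 0 genes of any of these lists were called by edgeR.

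Likeness across the 10 libraries was described by Pearson correlation of log2 CPM. Libraries come in 5 pairs that share a line, so the 10 points are not independent and no test is given. FGB and FGG had r = 0.994, FGA and FGB 0.975, and FGA and FGG 0.973. FGL1 had 0.671 to 0.757 with the chains and 0.672 with C3, CFB and SERPINA1 had 0.644, and the remaining pairs of the 8 genes lay between -0.355 and 0.488.

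Among 11969 genes with an average of at least 1 on the log2 CPM scale, the chains had each other and 1 further gene as their 3 closest. The further gene was RAB26 for FGA (r = 0.975), STAT4 for FGB (0.97) and ZNF140 for FGG (0.964). The genes given for FGL1 are DHRS3 (0.949) and MPC2 (0.945). C3 was closest to FOXO4 (0.914), ROGDI (0.914) and SMPDL3B (0.901). The closest to CFB was TXNDC5 (0.924), to SERPINA1 IDH3G (0.937) and to SERPING1 DDX28 (0.929), genes whose order here rests on low counts of the 3 members.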

How the data were processed

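RNA was measured in 10 libraries, 1 per line and treatment. The authors deposited whole-number counts per gene, per the file headers and the values. The submitters' processing notes name GRCh38, featureCounts, Subread, edgeR and limma. The aligner, the annotation and the strand setting are not given in the sources used here, and 98.7% of the row names matched GENCODE release 29. Of counts from 1 to 10, 81.4% were even, against 51.5% above 1000, as when both mates of a pair are counted. Totals are given with the results. No row without a gene name was present (0% of counts).

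From the counts, edgeR 4.0.16 in R 4.3.3 gave 1 additive fit of line and vector (filterByExpr, TMM factors 0.9716 to 1.0279, 4 residual degrees of freedom, quasi-likelihood test, Benjamini-Hochberg adjustment, threshold 0.05). The quasi-likelihood test shares information on the spread among genes, so its p-values draw on more than the 4 residual degrees of freedom of each gene. The standard error is the log2 fold change over the root of F. Libraries pair by cell line, which is the block in the vector test. The code was tested on simulated data. DESeq2 1.42.0, other scaling and filters, halved counts and left-out libraries were the alternatives.

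Members and lists were chosen with earlier results of these data known. Named genes were the 8 members, up to 3 called genes per list with the largest change in any WT comparison and an average log2 CPM of at least 1, and the 3 genes most correlated with each member. For CFB, SERPINA1 and SERPING1 the closest gene is given. Where a list had further calls, counts alone are given, except for genes marked as singled out after their values were seen. A further gene that the rule named is not reported here.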

Additional observations from a re-analysis of the deposited data

How the results depend on the processing

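Single members were recomputed for each comparison in which they were called under at least 1 setting, the joint comparison of the 5 lines left out. CFB and SERPING1 therefore do not enter. Of these 320 values, 268 kept direction and side of the threshold, 25 passed newly, 21 no longer passed and 6 turned direction. FGA, FGB and FGG kept their calls in E690K and L101P under the 17 alternatives run for each. In L101P without the vector term FGA passed only narrowly (edgeR adjusted p 0.0499), with FGG at 0.0326 and FGB at 0.0153. In E690K the largest adjusted p of the 3 chains over the alternatives was 0.00291 (edgeR). The counts of members called in L101P, E292V, E690K and among the 5 lines stayed within 1.5 times the reported one. In KO the count was 0 without the vector term, beside 165 of 17978 tested genes, and it moved when some single libraries were left out. For L101P against the mean of E292V and E690K it was 2 without a filter on low counts, beside 1707 of 24252 genes. Under DESeq2 it was 1, beside 1470 of 15886 genes, and it moved with some libraries left out. For the vector it was 3 without a filter, beside 237 of 24252 genes, and 3 under DESeq2, beside 113 of 14841 genes. The main fit of the vector called 0 of all 17978 genes. The vector count also moved with some libraries left out. Without the replicate block (line) the vector count stayed 0. Leaving out libraries moved the log2 fold change of FGL1 in L101P from -0.57 to 0.40. In L101P against the mean of E292V and E690K it moved FGB from -0.44 to -0.14, FGG from -0.37 to 0.10, FGL1 from -0.083 to 0.89, C3 from -0.12 to 0.39 and SERPINA1 from -0.007 to 1.91. The cause of these moves was not tested beyond the loss of a library. CFB, SERPINA1 and SERPING1 had 6 to 175 counts per library, and what size of difference that depth could show was not tested.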
